A study of Mus musculus with 15 samples.

Results

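The opioid receptor genes Oprk1, Oprm1, Oprd1 and Oprl1 and the opioid peptide precursor genes Pdyn, Penk and Pnoc were followed in nuclei of the mouse ventral tegmental area, the midbrain region that holds the dopamine neurons projecting to the ventral striatum and prefrontal cortex. These 7 genes were picked by their symbols from the 35976 genes of the deposited count table, and all 7 passed the filter on low counts in every comparison. All mice were male, 8 to 12 weeks old and heterozygous for DAT-Cre (B6.SJL-Slc6a3tm1.1(cre)Bkmm/J), an allele that puts Cre recombinase under the dopamine transporter gene Slc6a3 and that every group carried. A Cre-dependent virus, AAV5-DIO-KASH-HA, given 14 days earlier, put a tagged protein on the nuclear envelope of Cre-expressing cells, so that nuclei with HA (called dopaminergic) could be sorted from nuclei without it (called non-dopaminergic). Each sample pooled tissue of 2 mice. The groups were dopaminergic nuclei after 7 days of lever pressing for food (food-trained, n = 4 libraries), dopaminergic nuclei after a cocaine schedule (maintenance, n = 3), dopaminergic nuclei after that schedule and 21 days in the home cage (abstinence, n = 4), and the HA-negative nuclei of food-trained mice (n = 4). The schedule was 5 daily 1-hour sessions of intravenous self-administration at 0.3 mg/kg per infusion and 10 at 1.0 mg/kg per infusion. Non-dopaminergic nuclei were analysed after food training only, so the populations cannot be compared after cocaine.

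Opioid receptors are G protein-coupled receptors that act mainly through inhibitory G proteins, opening potassium channels and closing calcium channels. Oprm1 encodes the mu receptor, the main target of morphine, Oprd1 the delta receptor, Oprk1 the kappa receptor and Oprl1 the nociceptin receptor, which binds classical opioids poorly. Their peptides are cut from larger precursors: Penk gives enkephalins, which act on delta and mu receptors, Pdyn gives dynorphins, which act on kappa receptors, and Pnoc gives nociceptin. In the midbrain, mu receptors are best known on inhibitory neurons that contact dopamine cells, whereas kappa receptors lie on dopamine neurons themselves and reduce dopamine release.

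The kind of opioid core that each precursor encodes is shown first, because it sets which peptides each gene can give. Coding sequences were read from GENCODE M21 transcripts (GRCm38). The Penk coding sequence (804 bases, chr4:4133531-4138819, minus strand) held 6 Met-enkephalin units and 1 Leu-enkephalin unit, where a unit is the 15 bases that encode the core. The Pdyn coding sequence (744 bases, chr2:129686565-129699844, minus strand) held 3 Leu-enkephalin units and 0 Met-enkephalin units, and that of Pnoc (636 bases, chr14:65400673-65425472, minus strand) held 0 of either and 1 start of nociceptin. In the lines that follow, capitals mark the unit and the 6 bases on each side are in lower case.
Penk Met-enkephalin unit 1: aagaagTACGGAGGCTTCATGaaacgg
Penk Met-enkephalin unit 3: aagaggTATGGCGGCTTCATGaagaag
Penk Leu-enkephalin unit: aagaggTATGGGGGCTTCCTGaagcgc
Pdyn Leu-enkephalin unit 1: aaacgcTATGGCGGCTTTTTGcgcaaa
Pdyn Leu-enkephalin unit 2: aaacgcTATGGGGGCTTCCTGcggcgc
Pdyn Leu-enkephalin unit 3: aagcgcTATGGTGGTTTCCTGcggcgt
Pnoc start of nociceptin: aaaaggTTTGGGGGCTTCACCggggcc
Each unit of Pdyn and the Leu-enkephalin unit of Penk had codons for a pair of basic residues on both sides, the kind of site at which prohormone convertases cut, as had 4 of the 6 Met-enkephalin units of Penk. All 6 Met-enkephalin units and the start of nociceptin had such a pair before them. The second Pdyn unit and the Leu-enkephalin unit of Penk were the same 15 bases. The 6 Met-enkephalin units were written in 5 different ways.

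The receptor genes lie at chr1:5588466-5606131 (Oprk1, plus strand), chr10:6758506-7038198 (Oprm1, plus strand), chr4:132110726-132144486 (Oprd1, minus strand) and chr2:181715016-181720985 (Oprl1, plus strand), in the same build. Whether reads were counted by strand is not given in the sources used here, and 2 of the members overlap genes on the other strand. Penk shares 499 bases, of which 233 are exonic in both, with A830012C17Rik, which was listed at 0 in all 11 dopaminergic libraries and reached at most 2 counts in a non-dopaminergic one. Oprm1 shares 152403 bases, of which 96 are exonic in both, with Ipcef1, which had 0 to 42.3 CPM in the dopaminergic libraries, so the low values of Oprm1 are uncertain. Oprm1 also shares 3256 bases, 0 of them exonic in both, with Gm10945, which was not analysed here.

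Total counts per library ranged from 25813697 to 59046618. Values are given as CPM, for which each library was scaled by its TMM factor, fitted over the 15 libraries. Between 14841 and 19750 genes had a count in dopaminergic libraries and 22733 to 23886 in non-dopaminergic ones, and 39.2% of the 19060 genes tested between stages were at 0 in 1 or more of the 11 dopaminergic libraries, against 3.83% in 1 or more of the 4 non-dopaminergic ones. As a check of the sort, Slc6a3 stood at 2989 ± 1053 CPM after food training in the first population and at 92.8 ± 18.4 CPM in the other (SD, n = 4 each), so that the non-dopaminergic group held 3.10% of the dopaminergic level. Th, tyrosine hydroxylase, stood at 4.25%. Summed markers of oligodendrocytes (10 genes) were at 1694 to 2780.1 CPM in the food-trained dopaminergic libraries and 9441 to 22439 CPM in the others. Each of the 12 markers on the dopamine neuron list was detected in dopaminergic nuclei, and their sum was 6105 to 11416 against 362 to 516 CPM. Sums of 5 markers of neighbouring nuclei were 31.7 to 133 against 36.1 to 42.3 CPM, of 8 microglial markers 561 to 1095 against 1835 to 3579 CPM and of 7 astrocyte markers 463 to 915 against 1539 to 3151 CPM. Their part in the differences of the opioid genes was not tested. P-values measure the spread between these pooled samples.

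The first comparison asked which opioid genes distinguish dopaminergic from other nuclei of the region. Of the 7 genes, Oprk1 and Oprl1 were higher in dopaminergic nuclei, by 12.3-fold and 2.26-fold, and 0 were lower. Over all 19786 genes tested, 3.63% were called higher and 9.17% lower by edgeR's quasi-likelihood test at an adjusted p under 0.05. That split depended on the fit: 413 were higher and 362 lower with the replicate number as a block, 916 and 727 with at least 10 counts in every library, 1505 and 2378 with DESeq2's test, and 892 and 3374 with limma-voom and sample quality weights. Over the 8 fits that each left out a library, 364 to 1145 were higher and 1536 to 3013 lower, lower calls being more in each; 364 came without non-dopaminergic replicate 1, 395 without replicate 3 and 433 without replicate 4 of that group, 1145 without dopaminergic replicate 3 and 3013 without dopaminergic replicate 4. The median log2 fold change was 0.60 over the 7 genes and -0.21 over all genes. The 3 precursors and the other 2 receptors did not pass. In the 8 fits that each left out a library, Oprk1 and Oprl1 were called in every one, and Penk was also called without dopaminergic replicate 3. In sorted pools of nuclei, fewer expressing cells and less RNA per cell cannot be told apart.

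Oprk1, the kappa receptor, stood at 221, 380.0, 428 and 440.2 CPM in the dopaminergic libraries of food-trained mice (replicates 1 to 4). In the non-dopaminergic libraries it stood at 33.4, 34.5, 23.1 and 28.9 CPM. The lowest dopaminergic library was thus far above the highest non-dopaminergic one, and the groups did not overlap, as held in the same direction for 6.41% of all genes. The means were 367 ± 101 and 30.0 ± 5.17 CPM (SD, n = 4 each), and the log2 fold change was 3.63 (SE 0.28, 95% interval 3.00 to 4.25, edgeR adjusted p 0.000651). Ordered by p, Oprk1 was number 9 of the 19786 genes, Slc6a3 number 3 and Th number 7. The non-dopaminergic mean of Oprk1 was 8.17% of the dopaminergic mean, against the 3.10% of Slc6a3 and 4.25% of Th, and how much of it came from dopaminergic nuclei in that population was not tested.

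Oprl1, the nociceptin receptor, stood at 263, 372, 292 and 490.2 CPM in the dopaminergic libraries. It stood at 164, 169.5, 109 and 188 CPM in the non-dopaminergic libraries, again with no overlap. Unlike Oprk1 it was well expressed in both populations: the non-dopaminergic mean was 44.5% of the dopaminergic one. The log2 fold change was 1.18 (SE 0.26, 95% interval 0.60 to 1.76, edgeR adjusted p 0.0148). With the replicate number as a block, edgeR called 775 genes in place of 2534. Both receptors stayed past the threshold in that fit, with edgeR adjusted p 0.00436 for Oprk1 and 0.0249 for Oprl1.

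Oprm1 and Oprd1, the mu and delta receptors, were detected at low levels in both populations. In dopaminergic nuclei Oprm1 was at 0, 9.34, 0 and 1.83 CPM. In non-dopaminergic nuclei it was at 6.41, 3.94, 3.92 and 3.68 CPM. The dopaminergic libraries thus ran from no count to above every non-dopaminergic library, whereas all 4 non-dopaminergic libraries held the transcript. A 0 in 1 or more of the 11 dopaminergic libraries was common among all genes, as given above. The share of genes at 0 in 2 of the 4 food-trained libraries, as here, was not counted. A count of 0 allows up to 0.0518 CPM in replicate 1 and 0.108 CPM in replicate 3, taking 3 counts as the limit. Such limits cover counting error only, and amplified reads are not independent molecules. Ipcef1, on the other strand, was at 42.3 CPM in replicate 3, where Oprm1 was at 0, and at 0 in replicate 2, where Oprm1 was highest. The log2 fold change of Oprm1 was -0.67 (95% interval -4.67 to 3.33, edgeR adjusted p 0.875), an interval that spans large differences in either direction. It was -4.24 with the replicate number as a block (edgeR adjusted p 0.502), -4.06 with limma-voom and sample quality weights (limma adjusted p 0.0921) and -2.86 without dopaminergic replicate 2, the library with the highest value. Over the 8 fits that each left out a library it ran from -2.86 to -0.23, and none of these passed.

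Oprd1 was at 0.311, 0, 14.4 and 4.67 CPM in the dopaminergic libraries. It was at 14.6, 11.3, 8.40 and 9.66 CPM in the non-dopaminergic ones. Replicate 3 of the dopaminergic libraries lay within the non-dopaminergic range and the other 3 lay below it. The fitted difference was -1.17 on the log2 scale (95% interval -4.46 to 2.11, edgeR adjusted p 0.710). It was -3.41 with the block (edgeR adjusted p 0.420), -3.69 with weighted limma-voom (limma adjusted p 0.106) and -2.71 without dopaminergic replicate 3, the lowest of a range that reached -0.76 over the 8 fits, and none of these passed. In replicate 2 the count was 0, which allows up to 0.0854 CPM.

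**Figure D1:**
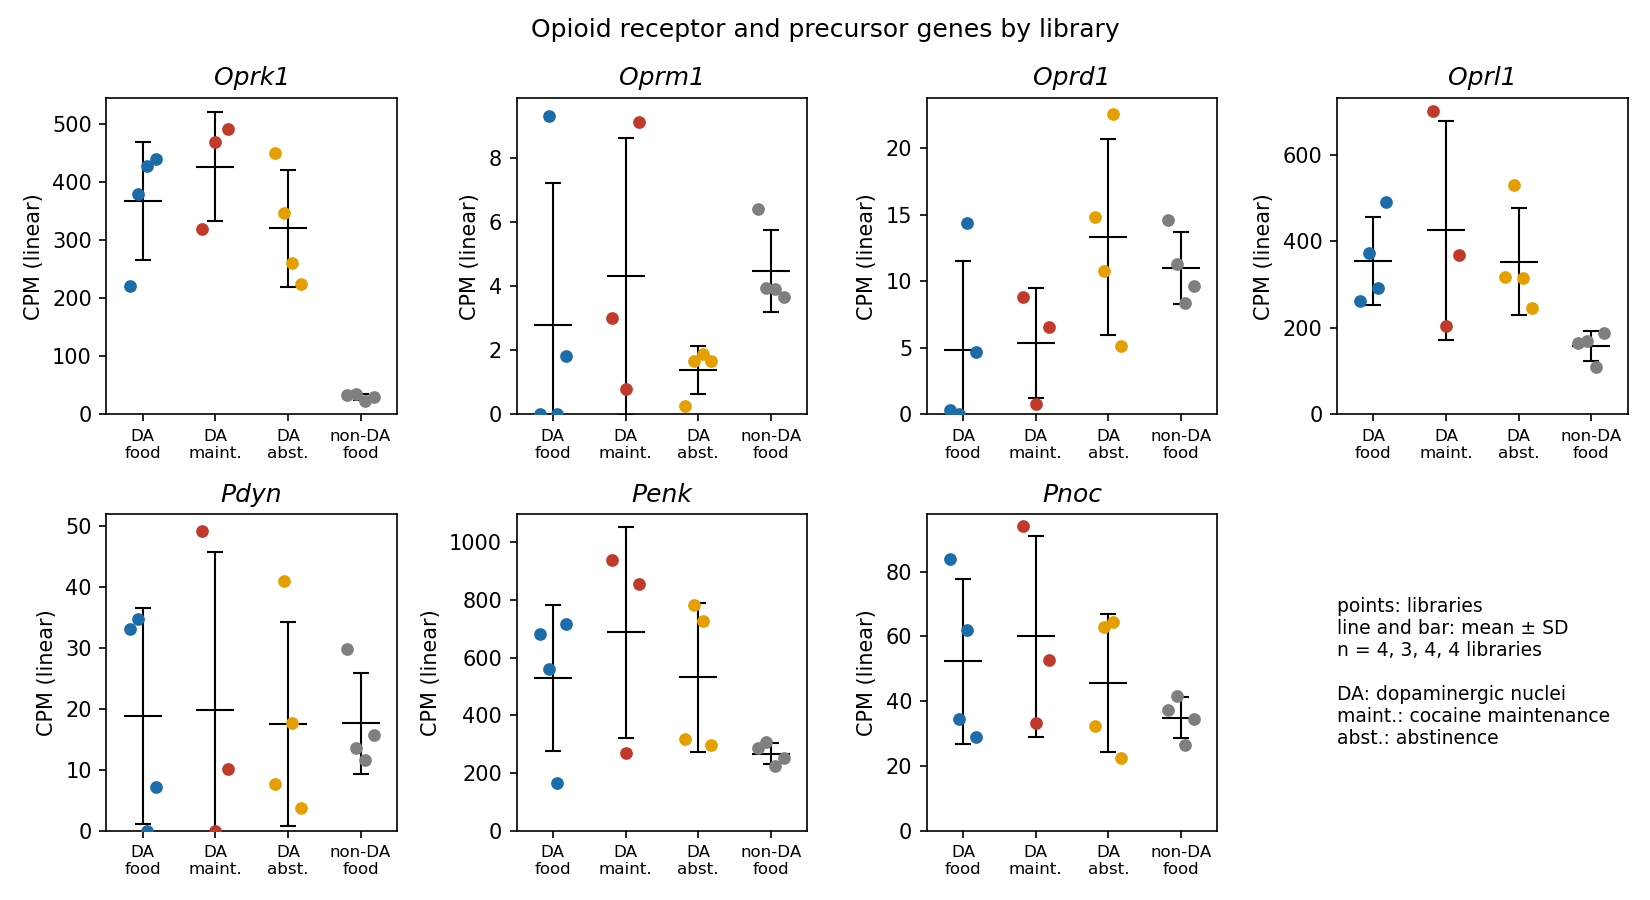
CPM of each gene on a linear axis in 4 groups of libraries: dopaminergic (DA) nuclei after food training, cocaine maintenance and abstinence, and non-dopaminergic nuclei after food training. Points are libraries, lines and bars the mean ± SD (bars end at 0 where they would run below it); Oprk1 stood between 221 and 492 CPM in all 11 dopaminergic libraries and at most 34.5 CPM in the non-dopaminergic ones.

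Among the precursors, Penk, the source of enkephalins, stood at 681, 561, 164 and 717 CPM in dopaminergic nuclei. In non-dopaminergic nuclei it stood at 287, 308, 224 and 251 CPM. Dopaminergic replicates 1, 2 and 4 were above every non-dopaminergic library and replicate 3 was below every one. Penk was 1.00 higher on the log2 scale by the fit (SE 0.40, 95% interval 0.10 to 1.90), with an unadjusted p of 0.0338 and an edgeR adjusted p of 0.159, so it did not pass. Without dopaminergic replicate 3 it was 1.32 (edgeR adjusted p 0.00813), and the adjusted p ran from 0.00813 to 0.320 over the 8 fits that each left out a library. DESeq2's test on all 8 libraries gave an adjusted p of 0.0474.

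Pdyn, the dynorphin precursor, stood at 33.1, 34.7, 0 and 7.22 CPM in the dopaminergic libraries. It stood at 29.8, 13.5, 11.5 and 15.7 CPM in the non-dopaminergic libraries. Dopaminergic replicates 1 and 2 were above every non-dopaminergic library and replicates 3 and 4 below every one, and the group means were 18.8 and 17.6 CPM. On the log2 scale the difference was 0.10 (95% interval -2.74 to 2.94, edgeR adjusted p 0.978). It turned to -0.95 with the replicate number as a block. The count of 0 in replicate 3 allows up to 0.108 CPM.

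Pnoc, the nociceptin precursor, stood at 83.9, 34.4, 61.9 and 29.0 CPM in the dopaminergic libraries. It stood at 37.2, 41.5, 26.3 and 34.5 CPM in the non-dopaminergic libraries. The ranges overlapped, and the log2 fold change was 0.60 (SE 0.36, 95% interval -0.22 to 1.41, edgeR adjusted p 0.369).

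**Figure D2:**
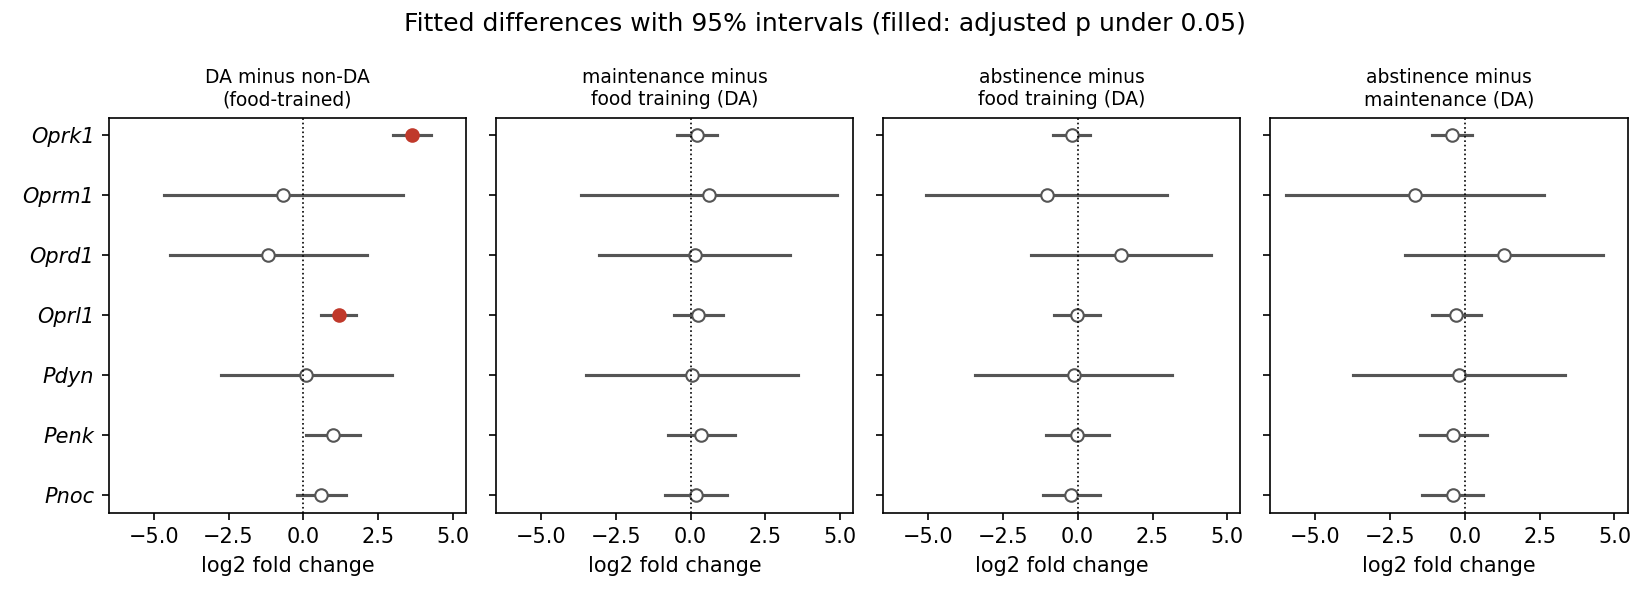
Fitted log2 fold change of each gene (points) with its 95% interval (lines) in 4 comparisons, filled where the adjusted p was under 0.05. Oprk1 and Oprl1 were filled in the comparison of populations, at 3.63 and 1.18, and 0 genes were filled in the comparisons of stages; the intervals of Oprm1, Oprd1 and Pdyn were the widest.

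Levels of different genes were set side by side as CPM per kilobase of the longest annotated transcript. In food-trained dopaminergic nuclei Penk led at 366 ± 175 CPM per kb (SD, n = 4), then Oprl1 at 114 ± 32.8 and Oprk1 at 78.6 ± 21.6. Pnoc followed at 24.3 ± 11.8, Pdyn at 7.86 ± 7.44, Oprd1 at 1.20 ± 1.67 and Oprm1 at 1.15 ± 1.84. Of neighbours in that order, Oprk1 and Pnoc did not overlap between libraries, and the other neighbours did. Among 17675 genes with a count in that group and a length, Penk was at percentile 99.6, Oprl1 at 98.1, Oprk1 at 96.7, Pnoc at 85.7, Pdyn at 60.8, Oprd1 at 25.1 and Oprm1 at 24.6. In non-dopaminergic nuclei the order was Penk, Oprl1, Pnoc, Pdyn, Oprk1, Oprd1 and Oprm1, with Oprk1 at 6.42 ± 1.11 CPM per kb and percentile 60.2. Pnoc and Pdyn, Pdyn and Oprk1, and Oprd1 and Oprm1 overlapped there. At maintenance Penk stood at 475 ± 252, Oprl1 at 137 ± 81.6 and Oprk1 at 91.2 ± 20.0 CPM per kb (SD, n = 3). At abstinence they stood at 367 ± 179, 114 ± 39.9 and 68.6 ± 21.6 CPM per kb (SD, n = 4), so the same 3 genes led at all 3 stages. With the length of merged exons, which for Oprk1 is 9151 bases in place of 4675, the food-trained mean of Oprk1 was 40.1 CPM per kb and it no longer overlapped Oprl1, and it then overlapped Pnoc.

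The make-up of the receptor RNA in each library does not depend on the scaling between libraries. Of the summed CPM per kb of the 4 receptors, Oprk1 made up 40.2 ± 5.67% (SD, n = 4) in food-trained dopaminergic and 10.5 ± 1.20% (n = 4) in non-dopaminergic nuclei. Oprl1 made up 58.6 ± 6.38% and 82.0 ± 2.73%. Oprk1 and Oprl1 together made up 98.1 to 99.9% in food-trained dopaminergic, and 90.5 to 94.5% in non-dopaminergic libraries, where Oprm1 held 2.15 to 3.99% and Oprd1 3.39 to 5.48%. With merged exons the share of Oprk1 was 29.5 ± 4.89% against 6.83 ± 0.822%. At maintenance the share of Oprk1 (longest transcript) was 42.9 ± 18.7% (SD, n = 3) and at abstinence 37.2 ± 7.59% (n = 4), both within wide ranges that covered the food-trained mean. Among the precursors, Penk held 79.7 to 96.8% of the summed CPM per kb in food-trained dopaminergic and 86.9 to 90.1% in non-dopaminergic libraries. Pdyn held at most 5.49% in any library.

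**Figure D3:**
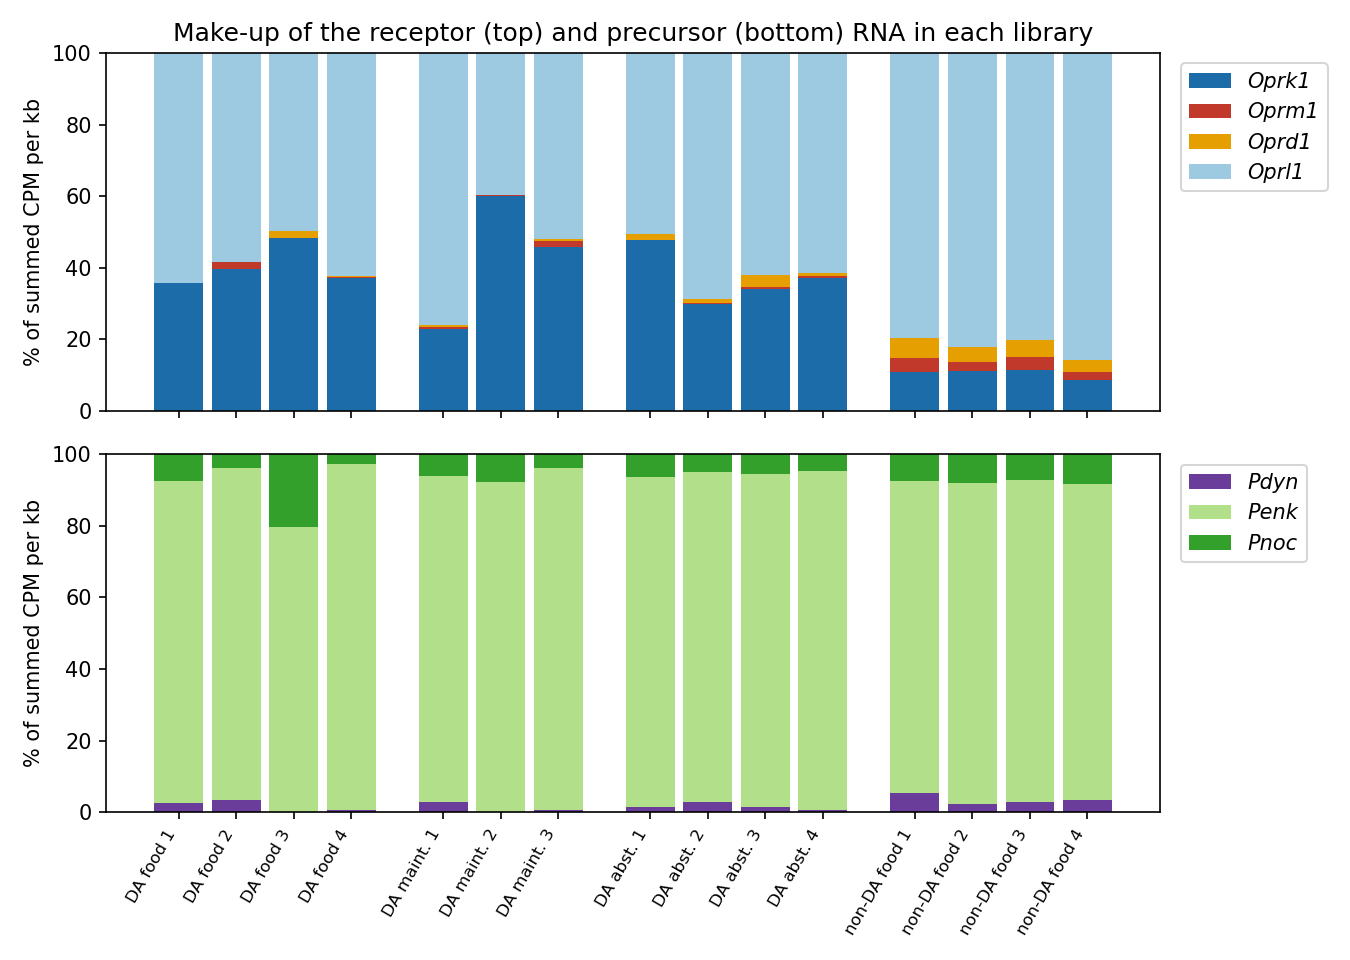
Stacked bars give, for each of the 15 libraries, the share of each gene in the summed CPM per kb of the 4 receptor genes (top) and of the 3 precursor genes (bottom), in percent. Oprk1 (dark blue) took 8.73 to 11.3% in the non-dopaminergic libraries and at least 22.9% in the dopaminergic ones, and Penk (light green) dominated the precursors in every library.

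The machinery around these genes was read from 35 genes in 6 lists: enzymes that process peptides, enzymes that break them down, inhibitory G protein alpha subunits, receptor kinases with arrestins and RGS proteins, effectors, and other opioid genes. Between the populations 1 of the 35 was called higher and 1 lower, 5.71% together against 12.8% of all genes. With the replicate number as a block 2 were called higher and 1 lower, 8.57% against 3.92% of all genes. The block was the one fit with a share above that of all genes: it was below in the other 8 settings and in all 8 fits that each left out a library. Higher and lower calls numbered 4 and 2 with DESeq2's test (17.1% against 19.6% of all genes), 1 and 2 with weighted limma-voom (8.57% against 21.6%), and 2 and 1 of the 30 then tested with at least 10 counts in every library (10.0% against 13.5%). Without dopaminergic replicate 3 they were 2 and 2 (11.4% against 17.96%), and 1 and 2 without replicate 2 (8.57% against 15.0%) or replicate 4 (8.57% against 18.04%) of that group. Pcsk1, a convertase that cuts prohormones at pairs of basic residues such as those beside the printed units, stood at 199.5 ± 74.3 CPM with HA and 54.3 ± 19.2 CPM without (SD, n = 4 each), a fitted log2 difference of 1.89 (SE 0.34) with an edgeR adjusted p of 0.00670. Gnao1, the alpha subunit of the G protein Go, stood at 78.1 ± 11.8 CPM with HA and 196 ± 31.1 CPM without (SD, n = 4 each), a fitted log2 difference of -1.32 (SE 0.19) with an edgeR adjusted p of 0.00670. Pcsk2, the other main neuronal convertase, did not pass: it stood at 456 ± 148 CPM with HA and 244 ± 64.1 CPM without (SD, n = 4 each), a fitted log2 difference of 0.91 (SE 0.29) with an edgeR adjusted p of 0.0733. In the 6 processing genes 1 was called higher and 0 lower, and in the 5 alpha subunits 0 and 1. In the 4 breakdown genes, 9 kinase, arrestin and RGS genes, 9 effectors and 2 other opioid genes 0 were called. Between stages 0 of the 35 were called in any comparison.

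The comparisons of stages asked whether opioid genes of dopaminergic nuclei differ after cocaine taking and after abstinence. In a fit of all 11 dopaminergic libraries, 0 of the 7 genes were called in any comparison of stages, and for 0 of them did any pair of stages separate without overlap, as 8.45%, 3.34% and 12.2% of all genes did between maintenance and food training, abstinence and food training, and abstinence and maintenance. Few genes of any kind were called by edgeR's quasi-likelihood test: 0.131% of 19060 between maintenance and food training, 0% between abstinence and food training, 0.178% between abstinence and maintenance, and 0.0839% in the test of any stage difference. For abstinence against food training, 819 genes (4.3%) had an unadjusted p under 0.05, and DESeq2's test called 125 genes. That test called many more than edgeR's in the other comparisons, 894 between maintenance and food training and 732 between abstinence and maintenance. In each, 0 of the 7 were among them. The lowest unadjusted p among the 7 genes was 0.497 (Penk) for maintenance, 0.320 (Oprd1) for abstinence against food training and 0.200 (Oprk1) for abstinence against maintenance. Both cocaine stages were compared with the same food-trained libraries.

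Oprk1 stood at 319, 469 and 492 CPM at maintenance (replicates 1 to 3). It stood at 451, 348, 260.1 and 225 CPM at abstinence (replicates 1 to 4). All 7 values lay between 225 and 492 CPM, and the ranges of the 3 stages overlapped. Fitted log2 fold changes were 0.21 (95% interval -0.45 to 0.88) at maintenance and -0.20 (-0.82 to 0.42) at abstinence, each against food training, with edgeR adjusted p of 0.925 and 1.000. Against maintenance, abstinence was at -0.42 (-1.08 to 0.25, edgeR adjusted p 0.821). These intervals reach from about 0.472-fold to 1.84-fold. Oprk1 has the lowest GC content of the 7 transcripts, 40.7% against 47.9 to 54.9%, and the 3 maintenance libraries had slopes of log2 CPM on GC percent of -0.0376 to -0.0224, below the -0.0167 to 0.0204 of the other dopaminergic libraries. With those slopes removed, the maintenance value of Oprk1 turned to -0.08.

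Oprl1 stood at 702, 205 and 369.6 CPM at maintenance. It stood at 317, 532, 314 and 247 CPM at abstinence. Maintenance replicate 1 held the highest and replicate 2 the lowest value of the 11 libraries, so the maintenance group spanned all others. The log2 fold change was 0.25 (-0.57 to 1.07, edgeR adjusted p 0.930) at maintenance and -0.02 (-0.78 to 0.74, adjusted p 1.000) at abstinence. As a share of Slc6a3 CPM in the same library, Oprl1 was at 10.9 to 12.9% in the food-trained, 10.9 to 15.7% in the abstinence and 10.7 to 26.3% in the maintenance libraries, with replicate 1 the high one.

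The low receptors left wide intervals. Oprd1 was at 8.83, 0.792 and 6.53 CPM at maintenance. It was at 14.8, 10.8, 22.5 and 5.10 CPM at abstinence. Its abstinence mean of 13.3 ± 7.34 CPM stood above the food-trained mean of 4.84 ± 6.71 CPM (SD, n = 4 each), but food-trained replicate 3 was within the abstinence range, and the log2 fold change of 1.45 (SE 1.40, 95% interval -1.57 to 4.47) did not pass. Without food-trained replicate 3 it was 3.00, the highest of a range that started at 1.04 over the 11 fits that each left out a library, with weighted limma-voom it was 3.81 and with the block 2.83, and none of these passed. Oprm1 was at 3.00, 0.792 and 9.15 CPM at maintenance. It was at 0.263, 1.68, 1.89 and 1.68 CPM at abstinence, with a log2 fold change against food training of -1.04 (95% interval -5.07 to 3.00), which turned to 1.17 without food-trained replicate 2. The highest Oprm1 values at food training and at maintenance, 9.34 and 9.15 CPM, each came from a single library.

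Penk stood at 938, 268 and 857 CPM at maintenance. It stood at 316, 783, 728 and 298 CPM at abstinence. Each stage held both low and high libraries, so the ranges overlapped, and the log2 fold changes were 0.36 (95% interval -0.76 to 1.49) at maintenance and -0.01 (-1.06 to 1.03) at abstinence. Pdyn was at 49.1, 0 and 10.1 CPM at maintenance. It was at 7.57, 40.9, 17.6 and 3.71 CPM at abstinence, where all 4 libraries held counts. The stage means of Pdyn were close, 18.8, 19.7 and 17.5 CPM, while the interval of the maintenance difference ran from -3.49 to 3.60 on the log2 scale. Pnoc stood at 94.2, 33.2 and 52.8 CPM at maintenance. It stood at 32.5, 62.9, 64.6 and 22.3 CPM at abstinence, and its log2 fold changes were 0.19 (-0.84 to 1.22) and -0.22 (-1.17 to 0.74).

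The genes differed in how much they varied between dopaminergic libraries. Over the 11 dopaminergic libraries the coefficient of variation of CPM was 27.0% for Oprk1, 39.5% for Oprl1, 45.7% for Pnoc, 46.7% for Penk, 88.0% for Oprd1, 95.5% for Pdyn and 125% for Oprm1. Penk and Pdyn varied together: Pearson's r of log2 CPM was 0.84 (permutation p 0.000850, 0.0178 adjusted over the 21 pairs of the 7 genes) and Spearman's rho 0.78 (permutation p 0.00659, 0.117 adjusted). Both tests were two-sided with 100000 permutations. The rank correlation therefore did not pass the adjustment, and of the 21 pairs 1 passed by Pearson's r and 0 by Spearman's rho. Without the 2 libraries farthest from the median of Pdyn, which are the 2 with a Pdyn count of 0, r was 0.65 over 9 libraries, and without the 3 maintenance libraries it was 0.87 over 8. For Oprk1, r was -0.20 to Penk and -0.42 to Pdyn, with permutation p adjusted over the 21 pairs of 0.801 and 0.515. Of 11280 other genes with a mean of at least 5 CPM, 4.54% had an r over 0.8 with Penk and 2.90% with Pdyn. The permutations do not account for depth and nuclear make-up, which libraries share across genes. An r of this size is therefore not particular to the pair.

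Pdyn followed Slc17a6, a vesicular glutamate transporter gene, more closely than Penk by these values. Over the 11 libraries Pearson's r was 0.94 and Spearman's rho 0.92 (permutation p adjusted over the 21 pairs of a member with Slc6a3, Th or Slc17a6, 0.00105 and 0.00399), and r was 0.79 without the same 2 libraries. Pdyn ran against Th, with r of -0.86 and rho of -0.77 (adjusted permutation p 0.0152 and 0.0537), and r was -0.46 without those 2. Penk had an r of 0.83 and a rho of 0.73 to Slc17a6 (adjusted permutation p 0.0152 and 0.0768), and r was 0.49 without them. The difference between these correlations was not tested. Slc17a6 was picked from the glutamate neuron markers, outside the rule for named genes. Markers of GABA neurons and glia were not correlated with the members in this way. The adjustment over the 21 pairs therefore does not cover that pick.

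The 2 libraries without Pdyn were food-trained replicate 3 and maintenance replicate 2, and they also had the lowest Penk of the 11, 164 and 268 CPM. They were also the 2 with the lowest total counts of all 15, 25813697 and 32032303, against at least 35536803 in the others. Food-trained replicate 3 had the fewest genes with a count, 14841, whereas maintenance replicate 2 had 17204, the most of its stage. They stood apart in markers too. The sum of the vesicular glutamate transporter genes Slc17a6, Slc17a7 and Slc17a8, markers of glutamate neurons, was 167 and 275 CPM there, against 428 to 963 CPM in the other 9. The sum of 6 markers of GABA neurons was 439 and 370.1 CPM, against 529.9 to 1434 CPM in the others. Astrocyte sums were also lowest there, at 463 and 481 CPM, against 524 to 915 CPM. Oligodendrocyte sums were the lowest of each stage, at 1694 and 1086 CPM, against 1154 to 2780 CPM in the others. Microglial sums, 561 and 875 CPM, lay within the 516 to 1106 CPM of the others. Th was highest there, at 1359 and 1249 CPM, against 500.2 to 927 CPM. Slc6a3 did not follow Th: it was at 2270 and 1911 CPM there, within the 1749 to 4501 CPM of the other 9. Maintenance replicate 2 had the lowest Slc6a3 of its stage, and food-trained replicate 3 was level with food-trained replicate 1, at 2271 CPM. The sum of the 12 dopamine neuron markers, 7768 and 7276 CPM, lay within the 5338 to 11416 CPM of the others. Oprk1 was not low in them, at 428 and 469 CPM. The part of the markers and of depth in the precursor values was not tested.

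**Figure D4:**
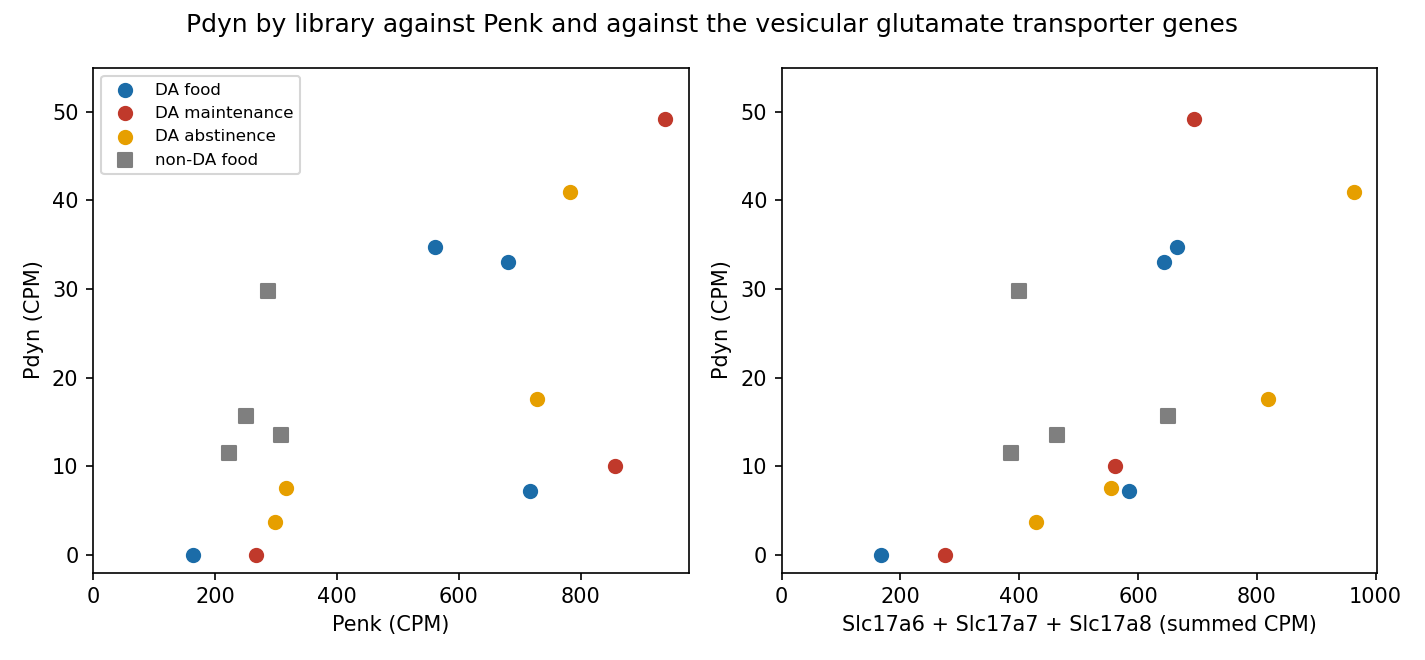
Pdyn CPM of each of the 15 libraries against Penk CPM (left) and against the summed CPM of Slc17a6, Slc17a7 and Slc17a8 (right), coloured by group, on linear axes. The 2 dopaminergic libraries at 0 CPM of Pdyn lie lowest among the 11 in Penk and in the glutamate transporter sum, and each stage has libraries at low and at high Pdyn.

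The genes whose pattern over the 11 dopaminergic libraries was most like that of each member were read from 11280 genes with a mean of at least 5 CPM, by Pearson's r of log2 CPM, as a description. Libraries share their depth and nuclear make-up across genes. For Oprk1 they were Bbox1, Clybl and Ccdc85c, with r of 0.90, 0.86 and 0.84. For Oprl1 they were Zfp606, Atp6v1b2 and Serpini1 (0.95 to 0.93), and for Oprd1 Tmem241, Fut2 and Dzip1l (0.92 to 0.91). For Penk they were Pcdhb9, Tmem184c and Itm2b (0.98 each), for Pdyn Rab3il1, Atp6v0a2 and Adamts1 (0.97 to 0.96) and for Pnoc Prcp, Zfp382 and Tcp1 (0.86 to 0.84). By ranks, Fut2 was less like Oprd1 (Spearman's rho 0.42) and Adamts1 less like Pdyn (rho 0.60), while the others had a rho of at least 0.75. Likeness was common for Penk, with 4.54% of the genes at an r over 0.8, and rare for Oprk1, with 0.0798%. Oprm1 was under the minimum level.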

How the data were processed

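Values are whole-number counts per gene that the authors deposited for 15 libraries. Per the submitters' processing notes, Trim Galore 0.6.7, cutadapt 1.18, STAR 2.7.10a, StringTie 2.1.5 and DESeq2 1.38.3 and the build mm10/GRCm38 were used. Which tool did the counting, the annotation and any use of strand are not given in the sources used here. Per the labels' protocols, a low-input cDNA kit was used for the libraries, so counts are amplified reads without molecular identifiers. A second deposited table repeats the counts of 10 libraries (0 cells differ) and was not used further.

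The members and lists were chosen with earlier results of these data known. Groups came from the sample titles. Counts were analysed with edgeR 4.0.16 (filterByExpr, TMM, quasi-likelihood F-test, two-sided, Benjamini-Hochberg adjusted p under 0.05 over all genes tested) in R 4.3.3, and with Python 3.11.15. The population comparison used the 8 food-trained libraries, the stages all 11 dopaminergic libraries. Where the report gives a log2 fold change it comes from these fits; correlations use log2 CPM with a prior count of 2. Lengths, GC content and sequences came from GENCODE M21, where 26763 symbols were found as written and 573 under an older symbol; 2 list genes were found under older symbols. The text names all 7 members, list genes past the threshold (Pcsk2 was added after its values were seen), Slc6a3 and Th, genes overlapping a member, and the 3 genes most like each member. Outside that rule it names the glutamate neuron markers Slc17a6, Slc17a7 and Slc17a8, of which Slc17a6 was correlated with each member.

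Replicate numbers in the sample titles were checked for pairing. Deviations of same-numbered dopaminergic and non-dopaminergic food-trained libraries correlated at 0.116 to 0.262 in 4 of 4 pairs, against -0.184 to 0.146 for different numbers. Such libraries may thus be pairs, but the main fit has no term for the number. Calls, SEs, intervals and p-values between the populations are therefore unpaired unless the block is named. The fit with the number as a block is given where it changed a count or direction. Alternatives were DESeq2 and upper quartile scaling, other filters, DESeq2 1.42.0, limma-voom with sample quality weights (limma 3.58.1), which changes the test and the weighting at once, a fit of all libraries, GC offsets, a fit of all libraries with a term shared by the 3 maintenance libraries and non-dopaminergic replicate 2 (the 4 libraries with the most negative GC slopes; the labels name no batch), the block and leaving out each library. Scripts were tested on simulated data with known changes.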

Additional observations from a re-analysis of the deposited data

Results flagged for a closer look

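Within each group of 4 libraries, the highest and lowest value of each gene were compared with the others by Dixon's ratio, in 21 groups of values. Chance flags about 1 in 20 such groups, and 2 stood apart, both of Oprm1. In non-dopaminergic replicate 1 Oprm1 was at 6.41 CPM, above 3.68 to 3.94 CPM in the other 3 libraries (ratio 0.905). In abstinence replicate 1 it was at 0.263 CPM (12 counts), below 1.68 to 1.89 CPM in the other 3 (ratio 0.868). Both ratios are over Dixon's critical value for 4 libraries at the 5% level.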

How the results depend on the processing

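Between the populations, Oprk1 and Oprl1 were higher and past the threshold under all 9 other settings and all 8 fits without a library, with log2 fold changes of 3.54 to 3.70 and 1.15 to 1.26 over the settings. Penk passed under DESeq2's test (1.02) and without dopaminergic replicate 3. Pdyn reversed to -1.27 with limma-voom and sample quality weights (weighted limma-voom) and -0.95 with the replicate block. Genes called between populations numbered 1643 with at least 10 counts in every library, 3883 with DESeq2, 4266 with weighted limma-voom and 775 with the block. The median log2 fold change over all genes was -0.63 with weighted limma-voom and -0.60 with the block, against -0.21. For the stages, 0 of the 7 genes passed under any setting. With weighted limma-voom, directions reversed for Oprl1 (-0.054) and Pdyn (-2.12) at maintenance, Oprm1 (2.10), Pdyn (0.85) and Pnoc (0.016) at abstinence, and Pdyn (2.96) between abstinence and maintenance. GC offsets took Oprk1 at maintenance to -0.079, and the term for the 4 libraries with the most negative GC slopes (the GC-slope term) took it to -0.082 and Pnoc to -0.18. The causes of these reversals were not tested. All 3 maintenance libraries share the GC-slope term, so only non-dopaminergic replicate 2 tells it apart from maintenance. Values and numbers of calls with that term rest on that library and cannot decide between the term and the stage.

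Numbers of stage libraries are only shared labels: same-numbered libraries of different stages correlated at -0.351 to 0.110. The replicate block turned Pdyn (-0.13) and Pnoc (-0.065) at maintenance, Oprm1 (0.62), Pdyn (0.25) and Penk (0.0048) at abstinence and Pdyn (0.38) between the cocaine stages. It changed no call of the 7 genes. Genes called at maintenance went from 25 to 0, between abstinence and maintenance from 34 to 2, for any stage from 16 to 0. At maintenance they numbered 109 with at least 10 counts in every library, 894 with DESeq2, 9 with weighted limma-voom and 0 with the GC-slope term. DESeq2 called 125 at abstinence. Between abstinence and maintenance they numbered 22 with upper quartile factors, 69 with at least 10 counts, 732 with DESeq2, 15 in one fit of all libraries and 1 with the GC-slope term, and for any stage difference 41 with at least 10 counts, 358 with DESeq2, 9 in one fit and 5 with GC offsets. Leaving out each library gave 5 to 78 genes at maintenance (78 without maintenance replicate 2), 6 to 73 between abstinence and maintenance (73 without the same library) and 1 to 23 for any stage difference.

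Other values of the stages also moved by over 1.5 times without a change of direction or call. At maintenance Oprm1 was 3.49 with weighted limma-voom and 3.47 with the block, and Oprd1 2.03 and 1.03. Between abstinence and maintenance Oprm1 was -2.85 with the block, and -0.46 without maintenance replicate 3.

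Directions that turned in a fit without a library are given as ranges of the log2 fold change. Between populations it was Pdyn -0.39 to 0.55, and Penk spanned 0.82 to 1.32. At maintenance they were Oprm1 -0.58 to 2.79, Oprd1 -0.42 to 1.69, Oprl1 -0.30 to 0.55, Pdyn -1.92 to 0.61 and Pnoc -0.29 to 0.51. At abstinence they were Oprm1 -1.45 to 1.17, Oprl1 -0.28 to 0.17, Pdyn -0.97 to 0.35, Penk -0.31 to 0.18 and Pnoc -0.44 to 0.11. Between abstinence and maintenance they were Oprl1 -0.58 to 0.28, Pdyn -1.02 to 1.79 and Pnoc -0.66 to 0.071. Oprm1, Oprd1 and Pdyn have a count of 0 in some libraries and so no value with at least 10 counts in every library. The merged-exon lengths and the correlation without the maintenance libraries were chosen after seeing the data.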
